A study of Mus musculus with 56 samples.

Results

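The 7 genes described here, Dusp1, Dusp2, Dusp4, Dusp5, Dusp6, Dusp10, and Dusp16, encode dual-specificity MAP kinase phosphatases. They were followed through every peak that the ChIP-seq lists name after them. The rule was the gene name written beside a peak, and it collected 1980 of 1610519 peaks in 56 samples, for 7 of 20352 named genes. Dusp6 had the most peaks over all samples (706), followed by Dusp4 (395), Dusp1 (308), Dusp5 (170), Dusp10 (165), Dusp16 (150), and Dusp2 (86).

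MAP kinases carry signals from Toll-like and cytokine receptors to the nucleus and are active only while a threonine and a tyrosine of their activation loop are phosphorylated. Dual-specificity phosphatases remove both phosphates, and many of their genes are themselves switched on by the kinases they silence, which makes them a negative feedback. DUSP1 (MKP-1), DUSP2 (PAC-1), and DUSP4 (MKP-2) are inducible nuclear enzymes with several MAP kinases as substrates, and DUSP5 is a nuclear phosphatase for ERK. DUSP6 (MKP-3) is a cytoplasmic phosphatase for ERK, and DUSP10 (MKP-5) and DUSP16 (MKP-7) prefer JNK and p38. In macrophages DUSP1 is known for limiting the cytokine output that follows LPS.

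All samples were bone marrow-derived macrophages (BMDMs) of wild-type mice on the C57BL/6 background, aged 8 to 12 weeks, which were grown for 6 days in L929 cell supernatant as the source of M-CSF. In the first experiment, 2 untreated samples (ctrl) and 2 samples treated with IL-4 (20 ng/ml) for 1 hr were available for each of 8 antibodies. These were RNAPII-pS5 and RNAPII-pS2 (the initiating and the elongating form of RNA polymerase II), H3K27Ac (the acetylation mark of active promoters and enhancers), PU.1, p300, HDAC1, HDAC2, and HDAC3. In the second experiment, RNAPII-pS5, RNAPII-pS2, and the NF-κB subunit p65 had 2 samples in each of 4 groups: untreated (ctrl/ctrl), IL-4 (20 ng/ml) for 24 hr (IL-4 PT/ctrl), LPS (100 ng/ml in the labels, where the methods give the same number in nM) for 1 hr (ctrl/LPS), and IL-4 for 24 hr before LPS for 1 hr (IL-4 PT/LPS). The study calls its ChIP-seq replicates biological and independent, and the labels do not say whether the samples of a group came from separate mice or cultures. The p-values measure the spread between these samples.

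RNAPII-pS5 peaks lay within 1000 bp of the start of 2 to 4 of 6 macrophage marker genes in every sample, with Cd68 in each. No such peak was listed at the markers of T cells, B cells, neutrophils, or fibroblasts in any sample. A list held 8440 to 71027 peaks. The p300 ctrl replicate 1 stood apart with 44787 peaks, against 66710 to 69360 in the other p300 lists. The peak identifiers inside the 4 RNAPII-pS2 files of IL-4 for 1 hr name the other treatment than the sample labels do. The groups below follow the labels. The labels also give the HDAC3 antibody the catalogue number of the H3K27Ac antibody, and which antibody the HDAC3 lists reflect was not tested.

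The sequences that carry the p65 results are shown first. They are the 300 bases around the midpoint of p65 regions, on the plus strand of GRCm38 (mm10), the build of the files. Capitals mark matches to the κB consensus, the STAT6-type motif (TTC and GAA with 4 bases of any kind between them), the STAT motif with 3 such bases, TTCNNNGAA, or the AP-1 motif TGANTCA, searched on both strands.
Dusp16, p65 region at −4.0 kb, chr6:134796462-134796761, 1 TTCNNNGAA: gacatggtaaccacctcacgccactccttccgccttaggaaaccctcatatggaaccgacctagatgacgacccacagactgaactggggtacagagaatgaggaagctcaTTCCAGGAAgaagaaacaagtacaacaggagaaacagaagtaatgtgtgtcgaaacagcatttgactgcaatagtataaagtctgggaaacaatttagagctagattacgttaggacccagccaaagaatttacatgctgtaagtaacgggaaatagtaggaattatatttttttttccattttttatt
Dusp2, p65 region at −0.7 kb, chr2:127335361-127335660, 2 κB and 1 STAT6-type: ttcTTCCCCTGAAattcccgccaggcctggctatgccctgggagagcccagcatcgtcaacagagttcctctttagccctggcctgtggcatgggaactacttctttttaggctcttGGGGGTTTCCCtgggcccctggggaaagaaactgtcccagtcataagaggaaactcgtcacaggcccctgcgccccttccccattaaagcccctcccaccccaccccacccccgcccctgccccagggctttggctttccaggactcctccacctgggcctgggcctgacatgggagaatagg
Dusp2, p65 region at −13.1 kb, chr2:127322918-127323217, 1 AP-1: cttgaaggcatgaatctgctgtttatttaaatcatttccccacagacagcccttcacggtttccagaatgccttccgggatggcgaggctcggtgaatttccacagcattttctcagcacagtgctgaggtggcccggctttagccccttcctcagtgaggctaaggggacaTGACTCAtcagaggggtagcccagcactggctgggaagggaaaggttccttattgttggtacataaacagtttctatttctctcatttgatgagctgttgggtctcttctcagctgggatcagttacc
Dusp1, p65 region at −6.4 kb, chr17:26514768-26515067, 2 AP-1: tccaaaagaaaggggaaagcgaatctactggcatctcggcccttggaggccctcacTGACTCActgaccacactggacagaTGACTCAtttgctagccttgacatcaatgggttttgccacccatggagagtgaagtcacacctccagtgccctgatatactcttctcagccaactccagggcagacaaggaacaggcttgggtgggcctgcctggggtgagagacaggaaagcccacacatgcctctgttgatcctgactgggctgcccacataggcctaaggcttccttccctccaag
Dusp1, p65 region at −10.0 kb, chr17:26518262-26518561, 1 STAT6-type: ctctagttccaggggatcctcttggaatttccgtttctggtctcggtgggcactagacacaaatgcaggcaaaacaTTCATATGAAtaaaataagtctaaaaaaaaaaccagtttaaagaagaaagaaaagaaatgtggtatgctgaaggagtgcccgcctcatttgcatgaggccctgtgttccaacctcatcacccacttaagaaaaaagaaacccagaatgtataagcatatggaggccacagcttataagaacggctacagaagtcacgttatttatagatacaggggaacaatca
Dusp10, p65 region at 14.8 kb, chr1:184049087-184049386, 1 κB: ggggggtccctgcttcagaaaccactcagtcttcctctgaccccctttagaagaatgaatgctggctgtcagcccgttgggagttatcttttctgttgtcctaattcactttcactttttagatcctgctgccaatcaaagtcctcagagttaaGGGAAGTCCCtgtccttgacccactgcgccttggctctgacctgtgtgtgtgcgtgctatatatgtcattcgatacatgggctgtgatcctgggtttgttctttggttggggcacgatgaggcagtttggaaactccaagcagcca

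Among all 37556 p65 regions with 300 bases read, 13.4% held the κB consensus, 11.5% the STAT6-type motif, 12.3% TTCNNNGAA, and 27.6% TGANTCA. Of the members' p65 regions, the κB consensus was in 2 of 10 at Dusp1, 1 of 3 at Dusp2, 3 of 12 at Dusp4, 1 of 6 at Dusp5, 2 of 17 at Dusp6, 1 of 5 at Dusp10, and 0 of 5 at Dusp16. A match is a stretch of letters and not a measured binding site, and no match says only that these letters are not in the window.

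The promoter of Dusp1 is shown because RNA polymerase II and p65 at this gene are described below. These are the 250 bases before the start in RefSeq (GRCm38.p6, minus strand), and the capitals are a full cAMP response element, TGACGTCA, which 1.55% of 32851 RefSeq promoter stretches of this length held. RefSeq promoters were matched for 6 of the 7 members, and none of the 6 held the κB consensus, either STAT motif, or TGANTCA, which were in 3.9%, 5.85%, 7.02%, and 6.75% of all promoters.
Dusp1, promoter, chr17:26508473-26508722: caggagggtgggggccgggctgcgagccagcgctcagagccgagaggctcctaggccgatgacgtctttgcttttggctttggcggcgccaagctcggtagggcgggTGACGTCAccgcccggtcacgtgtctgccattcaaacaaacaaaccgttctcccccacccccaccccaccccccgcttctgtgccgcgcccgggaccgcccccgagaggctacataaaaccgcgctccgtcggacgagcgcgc

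Distances are given from the start of the gene to the middle of a region, negative upstream. A MACS2 peak is valued by its score (a −log10 significance, either p or q), and that of an H3K27Ac region is its normalized tag signal. The value of a gene in a sample was the sum of its peaks' scores. Sums and regions were compared on a log2 scale after subtracting, for each sample, the median over genes or regions listed in all samples, and a missing peak took the lowest score listed for its antibody. Differences were tested with limma, with p-values adjusted by Benjamini-Hochberg over all genes or regions of the antibody and called at 0.05. No test is given for a region listed only in the samples of the higher group, because the requirement of a peak in at least 2 samples then fixed its direction.

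The name given to a peak mattered at Dusp2 and Dusp10. Dusp10 (chr1:184034381-184075636) shares its promoter with 1700056E22Rik, which runs the other way. The untreated RNAPII-pS5 peaks there (29.8 and 20.8) carried the name 1700056E22Rik and those after IL-4 for 1 hr (32.5 and 24.8) the name Dusp10. Dusp2 (chr2:127336159-127338377) lies before Astl on the same strand, and its gene-body RNAPII-pS5 peaks in ctrl/LPS (4238 and 4230 bp wide) carried the name Astl. These peaks began inside Dusp2 and ran past its end, so polymerase of the 2 genes cannot be told apart there. Peaks were therefore also summed over each gene's span with 1000 bp either side, whatever their name, a choice made after the data had been seen.

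The first question was what IL-4 for 1 hr did at the phosphatase genes. H3K27Ac had 4 of 7 members called, with Dusp1 and Dusp4 higher and Dusp2 and Dusp6 lower, in a comparison where 32.8% of 13035 genes were called, 14.8% higher and 18.1% lower. No member was called for RNAPII-pS5 (1.39% of all genes called), or for RNAPII-pS2, PU.1, p300, HDAC1, HDAC2, or HDAC3 (0% of all genes called for each). At an unadjusted p of at most 0.05, limma counted 2 members for RNAPII-pS5 (14.6% of all genes), 3 for RNAPII-pS2 (16.1%), 1 each for PU.1 (10.2%) and HDAC3 (15.4%), and 0 for p300 (25.8%), HDAC1 (8.86%), and HDAC2 (9.47%).

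**Figure D1:**
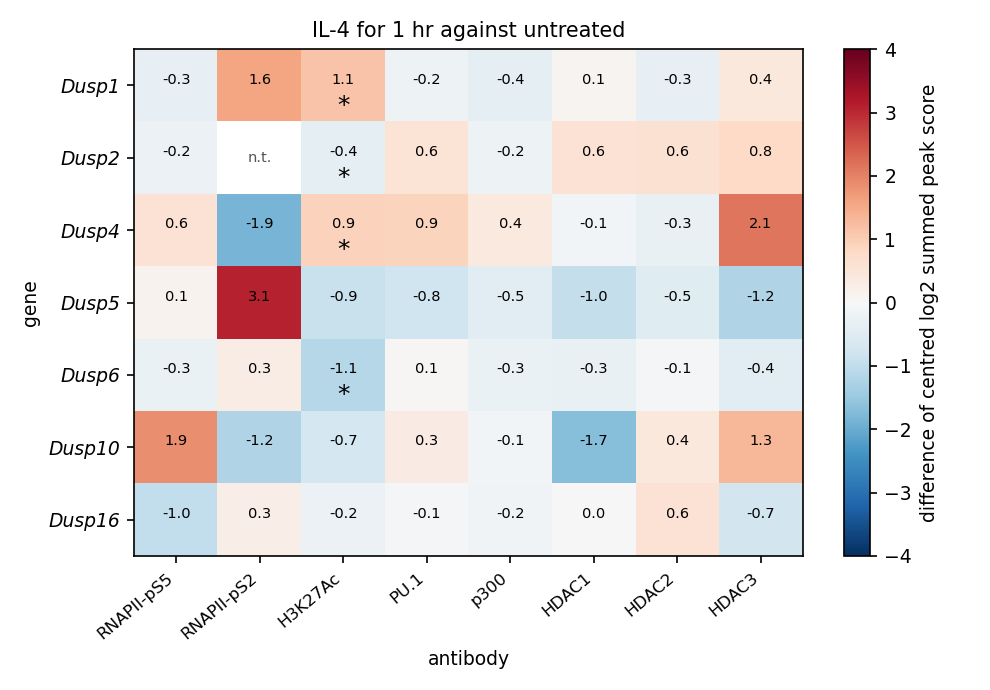
Difference of the centred log2 summed peak score between IL-4 for 1 hr and ctrl (2 samples each) for each gene (rows) and antibody (columns). Numbers are the differences, asterisks the calls at an adjusted p of at most 0.05, and n.t. a gene not tested; the 4 asterisks stand in the H3K27Ac column, at Dusp1, Dusp2, Dusp4, and Dusp6, and RNAPII-pS2 follows the sample labels.

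Dusp4 had higher summed scores after IL-4 with several antibodies, of which that of H3K27Ac passed the test. Its H3K27Ac sum was 437.1 and 436.5 in ctrl and 805.6 and 830.0 after IL-4, without overlap (log2 difference 0.91, SE 0.0525, adjusted p = 0.0042). A region at its start (0.3 kb) accounted for this difference, with 341.4 and 377.7 after IL-4 and no region listed in ctrl, and without it the sums were 437.1 and 436.5 against 464.2 and 452.3. RNAPII-pS5 at the Dusp4 promoter was 80.6 and 57.6 in ctrl and 67.0 and 72.0 after IL-4, so the groups overlapped there. By region, RNAPII-pS5 was called higher at 3 of 7 Dusp4 regions and lower at 0. Over all members 4 of 36 RNAPII-pS5 regions were called higher and 4 lower, with 5.43% of all RNAPII-pS5 regions called. Of these 8 calls, 1 held with the floor 4 times as high.

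Higher values were also found in a cluster of intergenic regions about 42 kb upstream of Dusp4, which was followed across antibodies after its values had been seen. Other p300 regions of the gene changed as well. Without the p300 ctrl replicate 1, differences ranged from 3.93 at 41.4 kb to −1.16 at −46.8 kb. Among them were 3.31 at −1.2 kb and −0.90 at 38.5 kb. At −42.5 kb, the highest p300 region of the gene, p300 scored 23.9 and 58.6 in ctrl and 214.7 and 214.0 after IL-4. The groups did not overlap, and the difference missed the threshold (log2 difference 1.85, SE 0.303, adjusted p = 0.0628), also without the p300 ctrl replicate 1 (1.96, adjusted p = 0.0636). PU.1, the pioneer factor of macrophage enhancers, scored 28.4 and 25.3 there in ctrl and 86.0 and 125.9 after IL-4.

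The regions on the side towards the gene had the same order of values. PU.1 was at 18.2 and 14.6 in ctrl and 74.3 and 66.5 after IL-4 at −41.6 kb, and at 5.76 and 9.22 and then 69.4 and 29.8 at −41.1 kb. HDAC3 had no region and 5.94 in ctrl at −42.5 kb and 16.5 and 22.5 after IL-4. No PU.1 or HDAC3 region of any gene was called in this comparison (0%). RNAPII-pS5 at −42.1 kb was listed only after IL-4, at 21.8 and 19.6.

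At the next regions away from the gene p300 did not have this order. It was at 16.8 and 81.5 in ctrl and 58.6 and 50.4 after IL-4 at −44.6 kb, and at 10.8 and 48.6 and then 22.7 and 18.4 at −46.8 kb. The groups overlapped at both places (log2 differences −0.11 and −0.83, adjusted p of 0.862 and 0.24). Without the p300 ctrl replicate 1 the differences were −0.50 and −1.16. Farther still the differences in that fit were 0.61 at −48.4 kb, 0.71 at −63.0 kb, and −0.17 at −67.1 kb. At −75.1 and −77.8 kb they were 0.65 and 0.73.

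**Figure D2:**
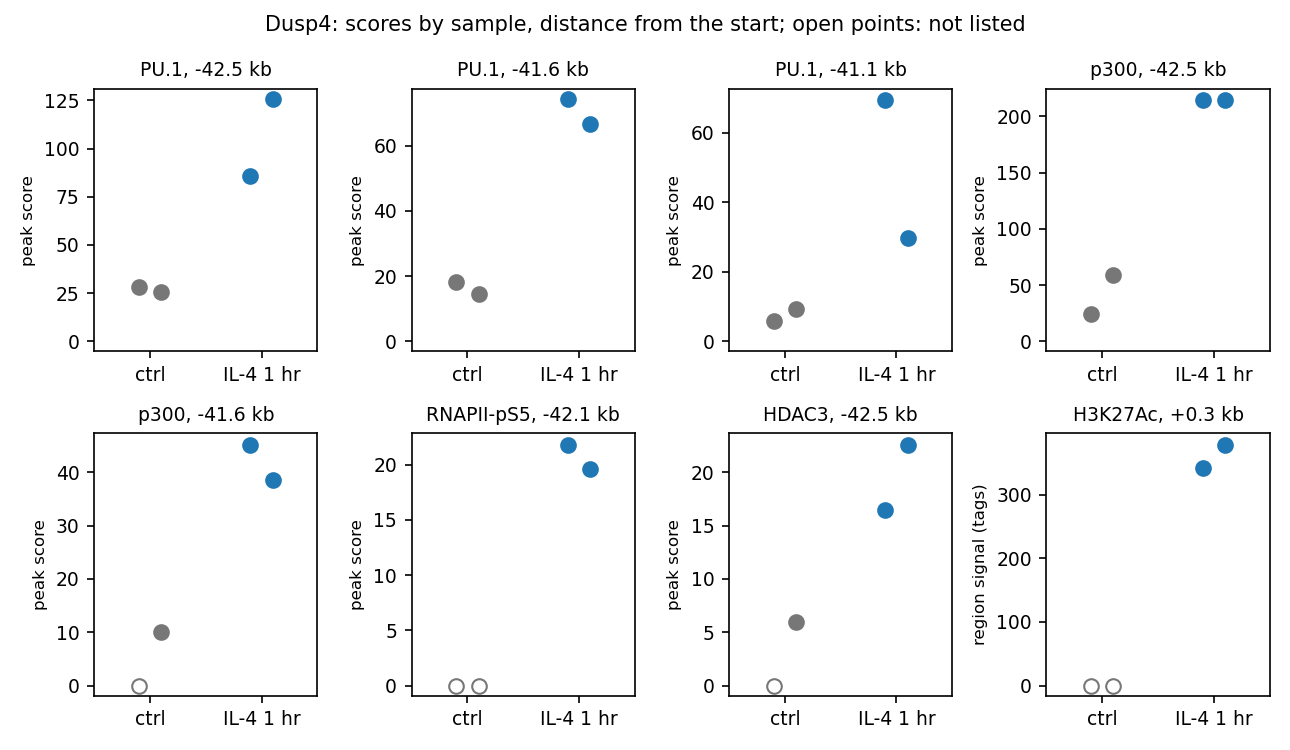
Scores of the regions upstream of Dusp4 and at its start (H3K27Ac) in each of the 2 ctrl and 2 IL-4 samples, in −log10 units of a p- or q-value except for H3K27Ac (normalized tags). Open points at 0 mark samples in which no region was listed. The 8 panels were chosen after their values had been seen, and in all of them both IL-4 samples lie above both ctrl samples. The RNAPII-pS5 and H3K27Ac panels show regions listed only after IL-4. RNAPII-pS2 at the cluster and p300 at −44.6 and −46.8 kb are not shown and did not have this order.

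RNAPII-pS2 ran the other way at Dusp4 by the sample labels. The libraries labelled ctrl had sums of 83.0 and 92.0 and those labelled IL-4 had 21.7 and 23.5, without overlap (log2 difference −1.87, SE 0.328, adjusted p = 0.0876). At −42.4 kb the libraries labelled ctrl scored 8.31 and 11.8 and those labelled IL-4 had no region. These are the lists in which the names of the peaks contradict the labels, and which of them holds was not tested.

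Dusp1 had the largest H3K27Ac gain of the members. Its sums were 413.2 and 388.9 in ctrl and 779.4 and 995.5 after IL-4 (log2 difference 1.14, SE 0.147, adjusted p = 0.0153), and the groups did not overlap. The call was lost without either ctrl sample (adjusted p of 0.0740 and 0.0762). A region at −26.3 kb was listed only after IL-4 (486.4 and 496.4), and without it the sums overlapped, at 413.2 and 388.9 in ctrl and 293.0 and 499.1 after IL-4. At 11.2 kb, beyond the 3′ end of the gene, H3K27Ac was at 379.4 and 371.1 in ctrl and 293.0 and 284.3 after IL-4 (log2 difference −0.33, SE 0.061, adjusted p = 0.0263), and this call was lost without any 1 of the 4 samples (adjusted p from 0.0872 to 0.122).

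RNAPII-pS5 at the Dusp1 promoter stayed in a narrow range, with 58.1 and 55.1 in ctrl and 63.9 and 62.0 after IL-4. The highest p300 and PU.1 region of this gene was the same place 3′ of it, at 10.9 kb. PU.1 scored 89.7 and 58.6 there in ctrl and 68.7 and 62.9 after IL-4, and p300 scored 85.0 and 179.9 and then 161.7 and 153.2, so both overlapped between groups. RNAPII-pS2 over the gene, at 3.1 kb, was at 9.20 and 16.4 in the libraries labelled ctrl and 38.6 and 45.7 in those labelled IL-4 (log2 difference 1.82, SE 0.36, adjusted p = 0.0631).

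Dusp6 fell in H3K27Ac, from 919.6 and 871.0 in ctrl to 404.3 and 399.5 after IL-4 (log2 difference −1.15, SE 0.0542, adjusted p = 0.00305), and the groups did not overlap. The main part was the promoter region at −0.8 kb, which was at 448.2 and 392.1 in ctrl and was not listed after IL-4. Without it the sums were 471.4 and 478.9 against 404.3 and 399.5. RNAPII-pS5 at the Dusp6 promoter was 43.3 and 31.0 in ctrl and 34.5 and 22.7 after IL-4, with overlap.

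A region absent from an H3K27Ac list is not a region without signal. The lowest score listed was 9.1, and strong regions were also dropped between replicates: of 2558 regions at 300 or above in ctrl replicate 1, 65 (2.54%) were not listed in ctrl replicate 2. For IL-4, 37 of 2437 such regions in replicate 1 (1.52%) were not listed in replicate 2. These are losses from 1 list, while the next counts are losses from both lists of a condition. Of 2269 regions at 300 or above in both ctrl samples, 58 (2.56%) were listed in neither IL-4 sample, and of 2275 at that level in both IL-4 samples, 94 (4.13%) in neither ctrl sample. The part of this in the calls at Dusp1, Dusp4, and Dusp6 was not tested.

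Dusp6 also had distal regions with opposite directions, whose p300 values were chosen after they had been seen. At 130 kb downstream of the start, H3K27Ac rose from 48.2 and 38.1 to 104.3 and 87.1 (log2 difference 1.21, SE 0.169, adjusted p = 0.0141, with 40.3% of all H3K27Ac regions called), a call lost without ctrl replicate 2 (adjusted p = 0.0508). p300 scored 3.03 and 26.7 there in ctrl and 120.4 and 144.9 after IL-4 (log2 difference 3.21, SE 0.59, adjusted p = 0.0733), or 2.39 without ctrl replicate 1 (adjusted p = 0.0591). At 7.4 kb, just past the gene, p300 scored 30.7 and 98.0 in ctrl and 15.6 and 20.4 after IL-4 (log2 difference −2.29, SE 0.303, adjusted p = 0.0511), or −2.37 without that sample (adjusted p = 0.0678). HDAC3 at that place was at 22.4 and 7.65 in ctrl and was not listed after IL-4.

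Dusp2 had a small loss of H3K27Ac, from 129.8 and 123.4 to 101.3 and 91.3 (log2 difference −0.39, SE 0.0753, adjusted p = 0.0338). The groups did not overlap, and the call was lost without any 1 of the 4 samples (adjusted p from 0.0638 to 0.131). Its RNAPII-pS5 promoter peak was at 60.9 and 47.7 in ctrl and 37.6 and 51.7 after IL-4, with overlap.

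By summed score the remaining members were not called for any antibody at 1 hr, though single regions of theirs were. Dusp5 had H3K27Ac sums of 90.5 and 75.9 in ctrl and 38.1 and 52.7 after IL-4 (log2 difference −0.88, SE 0.206, adjusted p = 0.051). PU.1 at its promoter scored 23.4 and 30.3 in ctrl and 10.3 and 10.4 after IL-4, without overlap (log2 difference −1.70, SE 0.538, adjusted p = 0.308). Dusp16 had RNAPII-pS5 sums of 43.2 and 42.7 in ctrl and 15.2 and 29.3 after IL-4 (log2 difference −0.98, SE 0.447, adjusted p = 0.447).

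Dusp10 had the largest RNAPII-pS5 difference of the members by name, 1.85, with an adjusted p of 0.0578. The sums were 9.02 and 7.28 in ctrl and 32.5 and 24.8 after IL-4, and they contain the change of name at the promoter. Over the gene span the sums were 35.9 and 20.8 in ctrl and 44.4 and 47.7 after IL-4 (log2 difference 0.76, SE 0.183, adjusted p = 0.229, with 0.937% of all genes called). In an intron at 28.7 kb, p300 was not listed and at 2.96 in ctrl and at 21.2 and 19.0 after IL-4. The groups did not overlap (log2 difference 2.66, SE 0.334, adjusted p = 0.0495, with 2.46% of all p300 regions called), and the call was lost with the floor 4 times as high (1.24, adjusted p = 0.331). Over all members 3 of 97 p300 regions were called (3.09%), 1 higher and 2 lower, and 0 of these calls held with that floor.

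The second question was how LPS moved the same genes, and what IL-4 for 24 hr changed before and during LPS. LPS for 1 hr called 2 of 7 members for p65, Dusp6 and Dusp16, both higher (35.1% of 12312 genes called, 19.1% higher), and 1 of 7 for RNAPII-pS2, Dusp5, higher (26.7% of 13663 called, 11.8% higher). It called 0 of the 6 members tested for RNAPII-pS5 (25.4% of 12477), with 2 at an unadjusted p of at most 0.05 (38.8%), but 3 over gene spans, Dusp1 and Dusp2 higher and Dusp6 lower (25.1% of 11106). IL-4 for 24 hr called 2 members each for RNAPII-pS5 (8.66%), RNAPII-pS2 (14.4%), and p65 (5.96%).

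The effect of pretreatment under LPS called no member by summed score for RNAPII-pS5 (10% of genes called), RNAPII-pS2 (8.46%), or p65 (12.5%). At an unadjusted p of at most 0.05 limma counted 1, 2, and 3 members (26.1%, 23.5%, and 25.7% of all genes). The difference between the LPS response with and without pretreatment called 0 members for RNAPII-pS5 (6.11%) and RNAPII-pS2 (6.38%), with 0 at an unadjusted p of at most 0.05 (22.6% and 22.4%), and 1, Dusp10, for p65 (7.42%). The p65 lists of IL-4 PT/LPS were longer, with 36738 and 38955 peaks against 26305 and 26820 in ctrl/LPS, and of all p65 regions 25.7% were called higher and 5.65% lower for pretreatment under LPS. The part of the list length in the members' p65 values was not tested.

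Changes of p65 under LPS are relative to a general rise. Centring removed a log2 shift of 1.64 between ctrl/ctrl and ctrl/LPS for p65 sums, against −0.33 for RNAPII-pS5 and 0.22 for RNAPII-pS2. Without centring, 6 of the 7 members were called higher for p65 and 0 lower. Over all genes the p65 calls were then 6229 higher and 121 lower, against 2349 and 1975 with centring. After centring, the median difference of all genes was −0.34 for RNAPII-pS5 and −0.22 for RNAPII-pS2 under LPS and 0.15 for p65 under IL-4 for 24 hr.

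**Figure D3:**
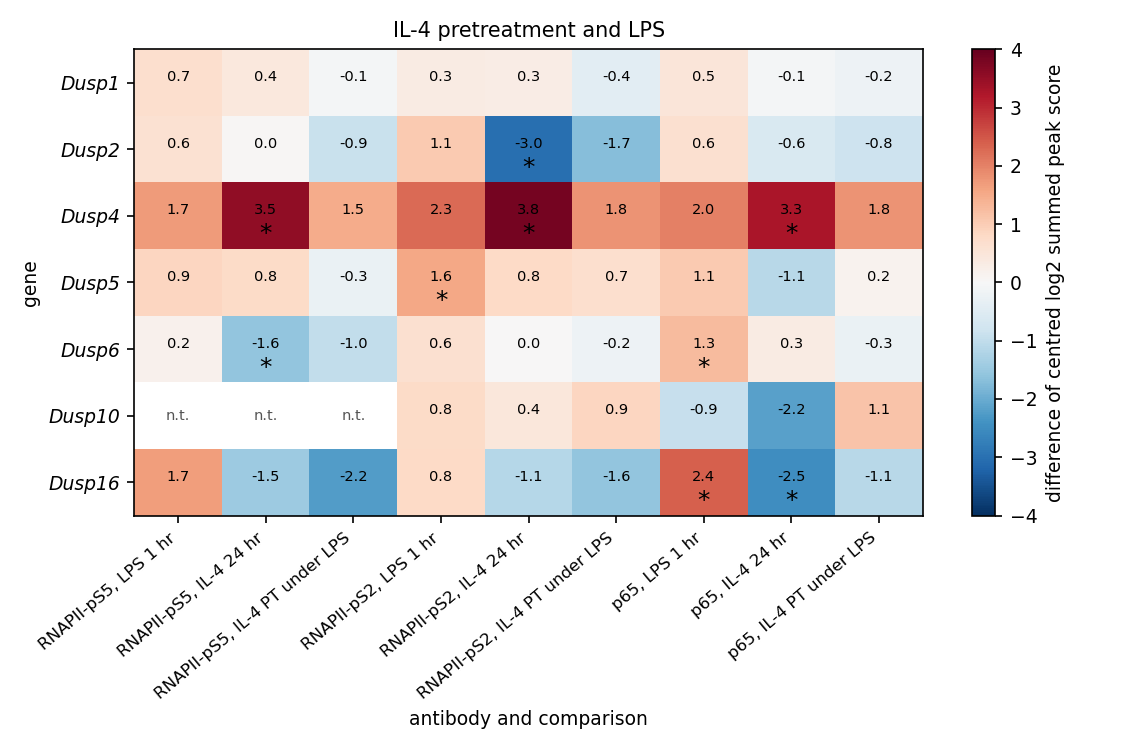
Difference of the centred log2 summed peak score for each gene (rows) in 3 comparisons for RNAPII-pS5, RNAPII-pS2, and p65 (columns; 2 samples a group). Numbers are the differences and asterisks the calls at an adjusted p of at most 0.05; Dusp4 is called higher after IL-4 for 24 hr for all 3 antibodies, and Dusp16 is called for p65 higher under LPS and lower after IL-4 for 24 hr.

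Dusp16 had its strongest p65 site at −4.0 kb from the start that the files use, which they annotate as intergenic and which lies inside the RefSeq span of the gene (chr6:134715468-134807063). There p65 scored 6.89 and 9.37 in ctrl/ctrl, was not listed in either IL-4 PT/ctrl sample, and reached 91.7 and 110.3 in ctrl/LPS and 48.6 and 49.8 in IL-4 PT/LPS. The 4 groups did not overlap. The rise under LPS was called (log2 difference 2.60, SE 0.222, adjusted p = 0.0008, with 46.7% of all p65 regions called), as was the lower value under LPS after pretreatment (log2 difference −1.30, adjusted p = 0.00714, with 31.3% called). The latter was lost without either IL-4 PT/LPS sample (adjusted p of 0.0899 and 0.0916).

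Elongating polymerase at the same place followed this order only in part. RNAPII-pS2 at −3.9 kb scored 25.9 and 13.8 in ctrl/ctrl, 8.96 and 12.4 in IL-4 PT/ctrl, 35.7 and 28.9 in ctrl/LPS, and 8.14 and 10.2 in IL-4 PT/LPS. The pretreated samples were low with and without LPS, and pretreatment lowered the value under LPS (log2 difference −1.76, SE 0.349, adjusted p = 0.0186, with 17.4% of all RNAPII-pS2 regions called), a call lost without any 1 of the 4 LPS samples (adjusted p from 0.0627 to 0.118). As a gene, Dusp16 had p65 sums of 6.89 and 9.37 in ctrl/ctrl and 117.0 and 144.9 in ctrl/LPS (log2 difference 2.38, SE 0.278, adjusted p = 0.00333). After IL-4 for 24 hr it had none (−2.47, adjusted p = 0.00936), a call that rests on a weak site and was lost with the floor 4 times as high (−0.47, adjusted p = 0.443).

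Dusp2 had p65 at its promoter and 13 kb upstream, and the sites differed. At −0.7 kb p65 scored 29.3 and 38.4 in ctrl/ctrl, 19.5 and 16.5 in IL-4 PT/ctrl, 92.3 and 83.9 in ctrl/LPS, and 100.0 and 78.5 in IL-4 PT/LPS, so the LPS groups overlapped each other. After centring removed the general rise, p65 over the span of Dusp2 was not called under LPS (log2 difference −0.17, SE 0.284, adjusted p = 0.678). At −13.1 kb p65 was not listed in ctrl/ctrl, was at 4.12 in 1 IL-4 PT/ctrl sample, and reached 64.9 and 75.9 in ctrl/LPS and 41.0 and 32.5 in IL-4 PT/LPS. No test of LPS is given there, because no ctrl/ctrl sample listed the region. The upstream site had lower p65 scores in both pretreated LPS samples, a difference that missed the threshold (log2 difference −1.21, adjusted p = 0.143).

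RNAPII-pS5 at the upstream site, at −12.9 kb, was listed only with LPS. It scored 15.8 and 12.1 in ctrl/LPS and 5.67 and 4.90 in IL-4 PT/LPS, without overlap (log2 difference −1.58, SE 0.249, adjusted p = 0.0111, with 13.9% of all RNAPII-pS5 regions called). That call was lost without ctrl/LPS replicate 1 or either IL-4 PT/LPS sample (adjusted p from 0.053 to 0.0763).

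Over the span of Dusp2, initiating polymerase rose with LPS and was lower under LPS after pretreatment. The RNAPII-pS5 peaks in ctrl/LPS are those named Astl, so polymerase of Dusp2 and Astl cannot be told apart. The RNAPII-pS2 peaks in ctrl/LPS also carried another name than Dusp2. The span sums of RNAPII-pS5 were 18.6 and 13.3 in ctrl/ctrl, 22.1 and 21.0 in IL-4 PT/ctrl, 70.7 and 68.8 in ctrl/LPS, and 31.4 and 43.5 in IL-4 PT/LPS. The LPS groups lay above both groups without LPS and did not overlap each other. Both steps were called over gene spans (LPS, log2 difference 2.54, SE 0.306, adjusted p = 0.00328; pretreatment under LPS, −1.34, adjusted p = 0.0459, with 9.63% of all genes called). RNAPII-pS2 had span sums of 10.5 and 14.0, 10.3 and 8.66, 52.4 and 56.6, and 30.2 and 33.5 in the same order, and the rise with LPS was called (2.17, SE 0.308, adjusted p = 0.00587, with 22.1% of all genes called). By name, Dusp2 was called only for RNAPII-pS2 lower after IL-4 for 24 hr (−3.00, adjusted p = 0.0102), from 10.5 and 12.98 to none, a call absent over the gene span (−0.27, adjusted p = 0.631, with 9.9% of all genes called) and lost without replicate 2 of ctrl/ctrl or of IL-4 PT/ctrl (adjusted p of 0.0594 and 0.0547). Single samples were not left out of the span sums.

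**Figure D4:**
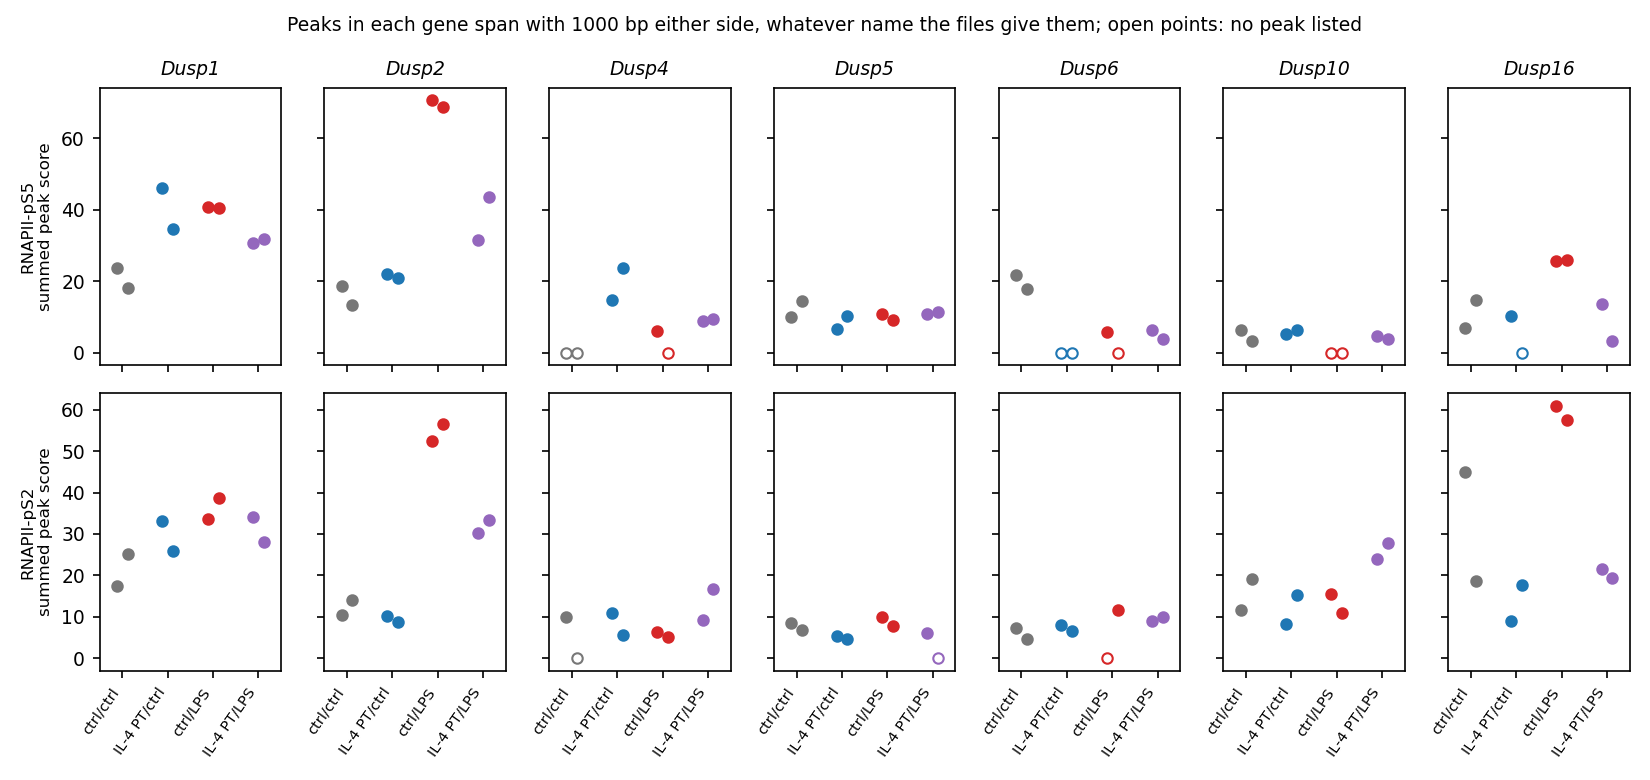
RNAPII-pS5 (top) and RNAPII-pS2 (bottom) peak scores summed over each gene's span with 1000 bp either side, per sample, in the 4 groups of the IL-4 and LPS experiment. Open points at 0 mark samples with no peak listed; for Dusp2 both ctrl/LPS samples lie above both IL-4 PT/LPS samples, which lie above all samples without LPS, for both antibodies.

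Dusp1 gained initiating polymerase over the gene with LPS. The RNAPII-pS5 region at 2.8 kb (chr17:26503351-26507996), which ran from inside the gene (chr17:26505591-26508472, minus strand) to beyond its 3′ end, scored 6.06 and 3.68 in ctrl/ctrl, 8.93 and 10.3 in IL-4 PT/ctrl, 40.7 and 40.4 in ctrl/LPS, and 30.8 and 31.9 in IL-4 PT/LPS. No group overlapped another, and the rise with LPS was called (log2 difference 3.28, SE 0.284, adjusted p = 0.00114, with 29.8% of all RNAPII-pS5 regions called). The short peak at the start, at 0.1 kb, was at 17.5 and 14.6 in ctrl/ctrl and 28.7 and 24.4 in IL-4 PT/ctrl and was not listed with LPS. Over the gene span the sums were 23.6 and 18.3 in ctrl/ctrl and 40.7 and 40.4 in ctrl/LPS (1.36, SE 0.293, adjusted p = 0.0197). The span sums of RNAPII-pS2 were 17.4 and 25.3 in ctrl/ctrl and 33.5 and 38.7 in ctrl/LPS, and this difference was not called (0.79, SE 0.347, adjusted p = 0.163). By name, the sums of Dusp1 were called for neither RNAPII-pS5 (0.68, adjusted p = 0.121) nor RNAPII-pS2 (0.32, adjusted p = 0.334).

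The strongest p65 site of Dusp1 was the place 3′ of the gene, at 10.9 kb, with 14.7 and 21.9 in ctrl/ctrl, 15.2 and 12.5 in IL-4 PT/ctrl, 51.3 and 42.9 in ctrl/LPS, and 51.7 and 49.9 in IL-4 PT/LPS. By summed score, p65 at Dusp1 was not called under LPS after centring (log2 difference 0.47, SE 0.307, adjusted p = 0.283). Upstream of the gene p65 was listed only with LPS. At −6.4 kb it scored 26.5 and 43.7 in ctrl/LPS and 39.5 and 28.9 in IL-4 PT/LPS, and at −10.0 kb 31.1 and 35.4 and then 31.7 and 30.1. The LPS groups overlapped each other at both sites, and no sample without LPS listed either. RNAPII-pS2 near the first site, at −6.5 kb, was at 5.03 in 1 ctrl/ctrl sample, at 11.9 and 16.4 in IL-4 PT/ctrl, at 36.5 and 27.7 in ctrl/LPS, and at 18.9 and 17.9 in IL-4 PT/LPS. Its rise with LPS was called (log2 difference 3.40, SE 0.567, adjusted p = 0.00567, with 33.3% of all RNAPII-pS2 regions called).

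**Figure D5:**
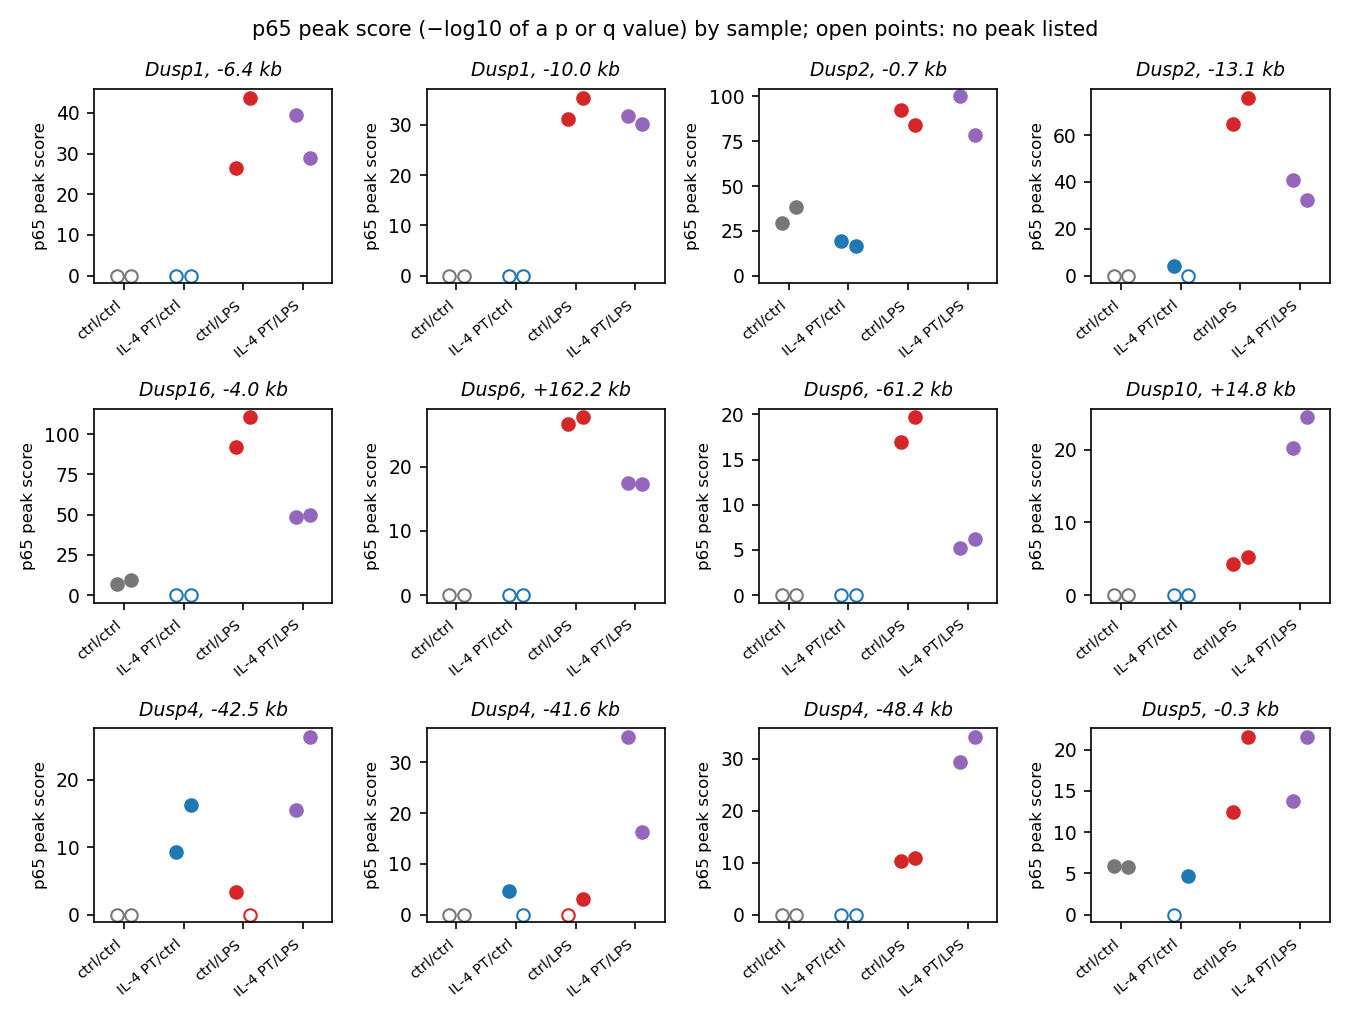
p65 peak score (−log10 of a p- or q-value) at 12 regions of 7 genes in each of the 8 samples, with the distance from the start of the gene in the panel titles and open points for samples without a listed peak. At Dusp16 (−4.0 kb), Dusp2 (−13.1 kb), and Dusp6 (162.2 and −61.2 kb) both IL-4 PT/LPS samples lie below both ctrl/LPS samples; at Dusp10 and at the 3 Dusp4 regions they lie above them.

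By summed score, Dusp4 gained signal with IL-4 pretreatment for all 3 antibodies. RNAPII-pS5 sums were 5.57 and none in ctrl/ctrl, 30.5 and 39.0 in IL-4 PT/ctrl, 9.93 and 5.51 in ctrl/LPS, and 20.3 and 30.9 in IL-4 PT/LPS. Both pretreated groups lay above both others. The difference after IL-4 for 24 hr was called for RNAPII-pS5 (log2 difference 3.53, SE 0.66, adjusted p = 0.026), RNAPII-pS2 (3.84, SE 0.954, adjusted p = 0.0492), and p65 (3.28, SE 0.66, adjusted p = 0.0474). Each call was lost when 1 sample was left out: for RNAPII-pS5 without ctrl/ctrl replicate 2 or either IL-4 PT/ctrl sample (adjusted p from 0.0821 to 0.126), for RNAPII-pS2 without either IL-4 PT/ctrl sample or any LPS sample (0.0825 to 0.166), and for p65 without any sample but ctrl/ctrl replicate 1 (0.0509 to 0.14).

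RNAPII-pS2 and p65 were also higher at Dusp4 in each pretreated group than in its partner without pretreatment. RNAPII-pS2 sums were 13.5 and none in ctrl/ctrl, 62.6 and 55.8 in IL-4 PT/ctrl, 26.8 and 22.0 in ctrl/LPS, and 91.5 and 82.0 in IL-4 PT/LPS. p65 sums were 5.17 and none, 19.7 and 26.4, 37.1 and 29.2, and 164.1 and 162.9 in the same order. No 2 groups overlapped for RNAPII-pS2 or p65, and the pretreated LPS samples were the highest for both. The sums were not called for pretreatment under LPS (RNAPII-pS2, log2 difference 1.79, adjusted p = 0.345; p65, 1.81, adjusted p = 0.155). Over the gene span, IL-4 for 24 hr was called for RNAPII-pS5 (log2 difference 3.62, adjusted p = 0.0289, with 6.97% of all genes called). It was not called there for RNAPII-pS2 (1.17, adjusted p = 0.473) or p65 (2.71, adjusted p = 0.0735). RNAPII-pS2 over the span was at 9.88 and none in ctrl/ctrl and 10.8 and 5.69 in IL-4 PT/ctrl, with overlap.

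The upstream cluster of Dusp4 was part of the sums. RNAPII-pS2 at −42.4 kb was listed only in pretreated samples, at 21.4 and 22.1 without LPS and 8.37 and 7.44 with it. At −48.4 kb, p65 was listed only with LPS, at 10.3 and 10.8 in ctrl/LPS and 29.4 and 34.2 in IL-4 PT/LPS, without overlap. RNAPII-pS2 there was listed only in IL-4 PT/LPS, at 15.7 and 20.8. At −42.5 kb p65 was at 9.22 and 16.3 in IL-4 PT/ctrl, 3.43 and none in ctrl/LPS, and 15.6 and 26.4 in IL-4 PT/LPS. The effect of pretreatment under LPS was called there (log2 difference 2.99, SE 0.566, adjusted p = 0.0108, with 25.7% of all p65 regions called higher) and was lost without either IL-4 PT/LPS sample (adjusted p of 0.0761 and 0.116). The p65 window at −42.5 kb held 2 matches to the STAT6-type motif and 1 to TTCNNNGAA. Of the 12 p65 windows of Dusp4, 1 held the STAT6-type motif and 2 held TTCNNNGAA. Over all members each of these motifs was in 7 of 58 windows, against 11.5% and 12.3% of all p65 regions.

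Dusp6 went the other way for initiating polymerase. RNAPII-pS5 sums were 57.6 and 71.4 in ctrl/ctrl, 21.7 and 23.4 in IL-4 PT/ctrl, 60.4 and 55.8 in ctrl/LPS, and 27.8 and 46.9 in IL-4 PT/LPS. Both pretreated groups lay below both others in these sums. IL-4 for 24 hr was called (log2 difference −1.58, SE 0.351, adjusted p = 0.0451), and the call was lost without any 1 of the ctrl/ctrl, IL-4 PT/ctrl, or ctrl/LPS samples (adjusted p from 0.0767 to 0.178). Over the gene span, RNAPII-pS5 was at 21.7 and 17.8 in ctrl/ctrl, was not listed in IL-4 PT/ctrl, and was at 5.91 and none in ctrl/LPS and 6.27 and 3.88 in IL-4 PT/LPS. The order of the sums did not hold there, since the LPS groups overlapped (pretreatment under LPS, 0.33, adjusted p = 0.761). The values were called lower after IL-4 for 24 hr (−3.84, SE 0.672, adjusted p = 0.0237, with 6.97% of all genes called) and under LPS (−2.35, SE 0.672, adjusted p = 0.0478). RNAPII-pS2 sums of Dusp6 were at 129.2 and 140.2 in ctrl/ctrl and 134.4 and 127.5 in IL-4 PT/ctrl, with overlap.

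The p65 sum of Dusp6 was 15.1 and 26.4 in ctrl/ctrl, 18.5 and 27.8 in IL-4 PT/ctrl, 155.5 and 141.9 in ctrl/LPS, and 173.1 and 177.7 in IL-4 PT/LPS. The rise with LPS was called (log2 difference 1.26, SE 0.368, adjusted p = 0.0445), and lost without ctrl/ctrl replicate 1 or any 1 LPS sample (adjusted p from 0.0908 to 0.174). Single sites differed from the sum. At −61.2 kb p65 was listed only with LPS, at 16.9 and 19.7 in ctrl/LPS and 5.26 and 6.20 in IL-4 PT/LPS (pretreatment under LPS, −1.94, SE 0.184, adjusted p = 0.000799). At 162.2 kb it was at 26.7 and 27.7 and then 17.4 and 17.3 (−0.92, SE 0.168, adjusted p = 0.00959), a call lost without either IL-4 PT/LPS sample (adjusted p of 0.101 and 0.117).

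By summed score Dusp5 was called once. Its RNAPII-pS2 sums were 8.57 and 6.72 in ctrl/ctrl, 10.1 and 15.6 in IL-4 PT/ctrl, 24.2 and 28.1 in ctrl/LPS, and 48.0 and 38.7 in IL-4 PT/LPS. The groups did not overlap, and the rise with LPS was called (log2 difference 1.56, SE 0.283, adjusted p = 0.0119). It came from intergenic peaks: without them the difference was 0.13 (adjusted p = 0.916), and by the highest peak alone −0.03. The call was also lost without ctrl/ctrl replicate 2 or ctrl/LPS replicate 2 (adjusted p of 0.0601 and 0.0544).

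At the Dusp5 promoter, at −0.5 kb, RNAPII-pS2 was at 8.57 and 6.72 in ctrl/ctrl and 5.45 and 4.65 in IL-4 PT/ctrl and was not listed with LPS, the opposite order to the sum. Close by, at −0.3 kb, p65 was at 5.89 and 5.81 in ctrl/ctrl, at 4.65 in 1 IL-4 PT/ctrl sample, at 12.5 and 21.5 in ctrl/LPS, and at 13.8 and 21.5 in IL-4 PT/LPS. The LPS groups overlapped each other and lay above the others. After centring removed the general rise, p65 over the gene span was not called under LPS (log2 difference −0.08, SE 0.673, adjusted p = 0.938).

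Dusp10, which like Dusp16 encodes a phosphatase that prefers JNK and p38, had a p65 region that was higher under LPS after pretreatment. At 14.8 kb, inside the gene, p65 was listed only with LPS, at 4.33 and 5.26 in ctrl/LPS and 20.3 and 24.4 in IL-4 PT/LPS. The groups did not overlap, and the effect of pretreatment under LPS was called (log2 difference 1.95, SE 0.193, adjusted p = 0.000936, with 25.7% of all p65 regions called higher). RNAPII-pS2 at 50.6 kb was not listed in ctrl/ctrl and was at 6.40 and 12.6 in IL-4 PT/ctrl, 12.5 and 11.9 in ctrl/LPS, and 36.6 and 28.2 in IL-4 PT/LPS (pretreatment under LPS, 1.46, SE 0.33, adjusted p = 0.0306). The latter call was lost without any 1 of the ctrl/ctrl, ctrl/LPS, or IL-4 PT/LPS samples (adjusted p from 0.0601 to 0.163).

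As a gene, Dusp10 had p65 sums of 10.4 and 9.49 in ctrl/ctrl, 3.08 and none in IL-4 PT/ctrl, 21.9 and 12.4 in ctrl/LPS, and 54.0 and 49.0 in IL-4 PT/LPS. By these sums the effect of pretreatment under LPS was not called (log2 difference 1.14, adjusted p = 0.207). The difference between the LPS responses was called (log2 difference 3.30, SE 0.673, adjusted p = 0.0432). It was lost without any sample but IL-4 PT/ctrl replicate 1 (adjusted p from 0.0575 to 0.212).

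Other genes of the pathway were counted by lists. Of 14 other dual-specificity phosphatases, IL-4 for 1 hr called 5 of the 9 tested for H3K27Ac, 3 higher and 2 lower, with a median difference of 0.09 against −0.01 for all genes, of which 32.8% were called. Of 9 MAP kinases, 3 of 7 tested were called in the same comparison, 2 higher and 1 lower. Mapk14, which encodes p38α, was at 1.15 (SE 0.0509, adjusted p = 0.00274).

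The Sprouty and Spred genes encode inhibitors of the pathway to ERK. Of 7, LPS called 2 higher of 4 tested for RNAPII-pS5, 3 higher of 5 for RNAPII-pS2, and 4 higher and 1 lower of 5 for p65, with medians of 2.91, 1.86, and 1.84 against −0.34, −0.22, and −0.04 for all genes. Of all genes, 8.3%, 11.8%, and 19.1% were called higher for the 3 antibodies, and 17.1%, 14.9%, and 16% lower. Spry2 had RNAPII-pS5 differences of 3.65 under LPS (SE 0.443, adjusted p = 0.00324) and −1.91 for pretreatment under LPS (adjusted p = 0.0475). The MAP kinases had 0 higher and 1 lower of 7 for RNAPII-pS5 under LPS, with a median of −1.19.

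The genes most like a member by RNAPII-pS5 over the 8 samples were taken from 5015 genes with a peak in each. Dusp1 ran closest to Acp6 (Pearson's r of 0.981), Spred1 (0.969), and Zfp560 (0.959), and Dusp6 to Gm1720 (0.989), Mir146 (0.982), and Fam133b (0.981). Dusp2 was closest to Fam114a2 (0.919) and Dusp5 to Ppp1r9b (0.954). Dusp4, Dusp10, and Dusp16 had no named peak in 1 or more of these samples and were left out. These are descriptions over 8 samples that share their groups and depths.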

How the data were processed

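ChIP-seq peak lists of 56 samples of double-crosslinked (DSG and formaldehyde) BMDM chromatin were used. The submitters' processing notes name BWA 0.7.10, SAMtools 0.1.19, MACS2 2.0.10, HOMER 4.2, and mm10. The authors deposited 52 lists with a MACS2 peak score, a −log10 value that the sources used here do not assign to a p- or q-value, so a score grows with depth as well as with binding. The authors deposited 4 H3K27Ac lists from HOMER with a signal of normalized tags. Peaks are called per sample, and annotated columns name the nearest gene. Read depths are not given in the sources used here, so no counting interval could be set. 2 library kits were used, and which sample had which is not given.

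Members, lists, regions, and alternatives were chosen with earlier results of these data known. A gene's score was the sum of its peaks. For regions, overlapping peaks of an antibody were merged within each experiment, and a region took the highest score of its peaks in a sample. Genes and regions listed in at least 2 samples were floored at the lowest listed score, log2-transformed, centred, and fitted with limma 3.58.1 (R 4.3.3). The fit was also run on simulated scores whose means and spreads came from genes with a peak in every sample. That run does not cover genes or regions with missing peaks. All 4 groups of the IL-4 and LPS experiment entered 1 fit per antibody, and the 1 hr experiment another. The comparisons were LPS against ctrl/ctrl, IL-4 PT/ctrl against ctrl/ctrl, IL-4 PT/LPS against ctrl/LPS, and the difference of the LPS responses. These comparisons share samples. Of 664 regions of the members 485 were tested.

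Regions named in the text are the highest by mean score for each member and antibody, and up to 3 called regions with the largest change. Region calls are given where they held with the floor 4 times as high and a compared group listed the region in both samples, which 83 of 201 calls did. A p300 region of Dusp10 without this is given with its lost call, and regions listed only in the higher group are given without a test. That restriction, the gene spans, and any other region named were chosen after seeing the data. Python 3.11.15, pandas 2.3.3, NumPy 2.4.6, and matplotlib 3.10.9 were used. Sequences came from the GRCm38.p6 RefSeq reference. Same-numbered samples did not deviate together (correlations of −0.03 to 0.07), so replicate numbers were not used as pairs.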

Additional observations from a re-analysis of the deposited data

Results flagged for a closer look

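In 12 results the LPS response with pretreatment differed from that without it by the test of the difference itself (limma, adjusted p over all genes or regions of the antibody), and each is given here as the log2 difference of the responses. Where a region was listed only with LPS, both baselines were the floor. Apart from the centring, its difference then repeats that of pretreatment under LPS. This holds for the p65 regions at 14.8 kb (Dusp10), −48.4 kb (Dusp4), and −61.2 kb (Dusp6), and for the RNAPII-pS5 region of Dusp2. The summed p65 score of Dusp10 had a difference of 3.30 (adjusted p = 0.0432), and its region at 14.8 kb one of 1.76 (adjusted p = 0.00826), which was lost without either IL-4 PT/LPS sample (adjusted p of 0.0687 and 0.0777). The Dusp4 p65 regions at 42.2 kb and −48.4 kb had differences of 2.24 (adjusted p = 0.042) and 1.13 (adjusted p = 0.0242), and both calls were lost without any 1 sample other than those of ctrl/LPS (adjusted p from 0.105 to 0.197 and from 0.0532 to 0.16). The Dusp6 p65 regions at −61.2 kb and 162.2 kb went the other way, with −2.14 (adjusted p = 0.00412) and −1.11 (adjusted p = 0.0235). The former was lost without IL-4 PT/LPS replicate 1 (adjusted p = 0.0533), and the latter without any 1 sample other than those of ctrl/LPS (adjusted p from 0.0567 to 0.158). The sum of Dusp10 kept the call only without IL-4 PT/ctrl replicate 1 (otherwise adjusted p from 0.0575 to 0.212).

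For polymerase, the RNAPII-pS2 regions of Dusp4 had differences of 3.71 at −48.4 kb (adjusted p = 0.00549) and −1.46 at −42.4 kb (adjusted p = 0.0214), and that of Dusp1 at −6.5 kb had −3.18 (adjusted p = 0.0413). RNAPII-pS5 had −1.57 at the Dusp1 region at 2.8 kb (adjusted p = 0.0496), −1.57 at the Dusp2 region at −12.9 kb (adjusted p = 0.0335), and −2.77 at the Dusp5 region at 23.6 kb (adjusted p = 0.00976), which was listed only in IL-4 PT/ctrl, at 9.33 and 8.10. The Dusp1 region at 2.8 kb and the Dusp2 region lost the call without any 1 of the 8 samples (adjusted p from 0.0518 to 0.14 and from 0.0538 to 0.113). The Dusp4 region at −42.4 kb lost it without any sample but IL-4 PT/ctrl replicate 2 (adjusted p from 0.0529 to 0.0874), and the Dusp1 region at −6.5 kb without any sample but those of ctrl/ctrl (adjusted p from 0.0895 to 0.124). The Dusp4 region at −48.4 kb for RNAPII-pS2 and the Dusp5 region were listed in both samples of 1 group and in no other. The requirement of a peak in at least 2 samples fixed the direction of these 2 differences, and leaving out a sample could not test them. The RNAPII-pS2 region of Dusp4 at −42.4 kb was listed only in pretreated samples, so its response without pretreatment compared floor values.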

How the results depend on the processing

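Counts are members called of 7, with the main count in parentheses. Calls over all genes changed with the setting too, so a count alone is no result about the members. Over gene spans, 26.5% of all genes were called for H3K27Ac at 1 hr and 9.9% for RNAPII-pS2 after IL-4 for 24 hr. The shares were 25.1% and 9.63% for RNAPII-pS5 under LPS and for pretreatment under LPS. For p65 they were 31.5%, 4.5%, and 12% under LPS, after IL-4 for 24 hr, and for pretreatment under LPS. The shares for most other settings are not given here. With intergenic peaks left out, calls were 2 for H3K27Ac at 1 hr (4), 1 each for RNAPII-pS5 under LPS (0) and after IL-4 for 24 hr (2), 1 each for RNAPII-pS2 after IL-4 for 24 hr (2) and the difference of responses (0), and 1, 0, and 1 for p65 under LPS (2), after IL-4 for 24 hr (2), and for pretreatment under LPS (0); Dusp16 p65 after IL-4 for 24 hr turned to 0.14 (−2.47). With the floor 4 times as high, they were 2 for RNAPII-pS2 at 1 hr (0), 1 for RNAPII-pS5 under LPS (0), 3, 1, and 2 for RNAPII-pS2 under LPS (1), after IL-4 for 24 hr (2), and for pretreatment under LPS (0), and 5, 1, and 4 for p65 in the same order (2, 2, and 0). Over gene spans, chosen after seeing the data, they were 2 for H3K27Ac, 3 and 1 for RNAPII-pS5 under LPS and for pretreatment under LPS, 0 for RNAPII-pS2 after IL-4 for 24 hr, and 1 each for p65 under LPS, after IL-4 for 24 hr, and for pretreatment under LPS. By the highest peak alone, they were 1 and 0 for RNAPII-pS5 under LPS and after IL-4 for 24 hr, 0 and 1 for RNAPII-pS2 under LPS and for pretreatment under LPS, and 1 for p65 for pretreatment under LPS; Dusp5 RNAPII-pS2 under LPS turned to −0.026 (1.56). With limma's trend they were 2 for RNAPII-pS2 at 1 hr, 1 each for PU.1, p300, and HDAC3, 1 for RNAPII-pS5 under LPS, and 2 for RNAPII-pS2 under LPS. Without centring they were 2 and 1 for RNAPII-pS2 under LPS and after IL-4 for 24 hr, and 6, 1, and 2 for p65 under LPS, after IL-4 for 24 hr, and for the difference. The genes called for p65 under LPS were then 6229 higher and 121 lower (2349 and 1975), for pretreatment under LPS 2275 and 172 (1270 and 270), for RNAPII-pS5 under LPS 786 and 2879 (1036 and 2139), and for RNAPII-pS2 under LPS 1998 and 1619 (1606 and 2041). With a peak required in every sample they were 1 for RNAPII-pS5 and 0 for RNAPII-pS2 and p65 after IL-4 for 24 hr, 1 for p65 under LPS, and 0 for its difference. By percentile ranks they were 1 for RNAPII-pS5 after IL-4 for 24 hr, 3, 1, and 3 for RNAPII-pS2 under LPS, after IL-4 for 24 hr, and for pretreatment under LPS, and 6, 1, 3, and 2 for p65 in that order and for the difference. With the upper 50% of peaks they were 1 for RNAPII-pS5 and 1 for HDAC3 at 1 hr, 1 each for RNAPII-pS5 and RNAPII-pS2 after IL-4 for 24 hr, 1 for RNAPII-pS2 for pretreatment under LPS, and 4 and 3 for p65 under LPS and for pretreatment under LPS; Dusp5 RNAPII-pS2 under LPS turned to −0.30. With the replicate number as a block, calls were 1 each for RNAPII-pS5 and RNAPII-pS2 after IL-4 for 24 hr, 1 for p65 under LPS, and 12 for regions at 1 hr (29); the block changed no other count of members by over 1.5 times. Without centring the regions called at 1 hr were 19. With an overlap of 50%, the Dusp10 p65 region at 226.5 kb turned to 0.67 under LPS (−2.10). At an unadjusted p of at most 0.05 they were 2, 3, 1, and 1 for RNAPII-pS5, RNAPII-pS2, PU.1, and HDAC3 at 1 hr, 2 and 1 for RNAPII-pS5 under LPS and for pretreatment under LPS, 2 and 2 for RNAPII-pS2, 3 for p65 for pretreatment under LPS, and 2 for its difference. Leaving out 1 sample gave 2 to 4 calls for H3K27Ac, 0 to 2 for RNAPII-pS5 and RNAPII-pS2 after IL-4 for 24 hr and RNAPII-pS2 under LPS, 1 to 2 for p65 under LPS and after IL-4 for 24 hr, 0 to 1 for RNAPII-pS5 under LPS, RNAPII-pS2 and p65 for pretreatment under LPS, and both differences of RNAPII-pS2 and p65, 9 to 22 region calls at 1 hr, and 98 to 151 in the IL-4 and LPS experiment. The causes were not tested.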
